A study of Homo sapiens with 24 samples.

Results

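Cytosolic ribosomal protein genes encode the protein part of the ribosome of the cytoplasm, and 29 of them could be followed in 2 human leukaemia lines exposed to the BET bromodomain inhibitor JQ1. The members were taken by gene symbol: core rows of the array whose annotation gives a single symbol of the form RPL or RPS followed by a number, and for a gene with several such rows the row with the highest mean over the 12 arrays. The 29 members, 18 of the large subunit and 11 of the small subunit, are 29 of the 14232 genes with a single-symbol core row. RefSeq lists 80 protein-coding genes whose symbols fit the same pattern. The other 51, among them RPLP0, RPLP1, RPLP2, RPSA, RPL5, RPL10 and RPS27A, were not analysed here. Within the core rows, 20 of these 51 appear, and only in rows that carry several symbols. A single-symbol row outside the core set exists for 33 of the 51.

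The samples were MHH-CALL4 and MUTZ-5, established lines of B-cell acute lymphoblastic leukaemia, each grown with the solvent DMSO or with 500 nM JQ1 for 8 h. Each of the 4 groups had 3 samples and so 3 exon arrays, and no genetic change was made in any group. Each array was deposited in 2 forms, a core and an extended summary of the same scan, which count as 1 replicate. Nothing in the labels tells separate cultures from repeat preparations of 1 culture, so the p-values rest on a spread among samples that may be only technical. Each line is a single line, and a difference between them need not hold for other patients' cells. Of 11 measured markers of precursor B cells, 10 lay above the median of all genes in every group, with medians between 12.02 and 12.45 on the log2 scale. Markers of T and NK cells (1 of 8 above that median), of erythroid cells (0 of 2), myeloid cells (1 to 2 of 7) and stroma (1 of 5) were mostly below it. The exceptions included NKG7 (mean 10.47 under DMSO and 9.51 with JQ1 in MHH-CALL4, 9.66 and 9.02 in MUTZ-5) and MPO (10.51 and 8.04, then 8.19 and 7.71). VIM stood at 12.53 under DMSO in MHH-CALL4 and 9.36 in MUTZ-5. The part of these differences in the results was not tested.

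A ribosome is built from a large subunit, which joins amino acids, and a small subunit, which reads the messenger RNA, and nearly all of their proteins are needed in equal number. Their messages are among the most abundant in dividing cells and belong to the TOP class: they begin with a C followed by an unbroken run of C and T bases (a terminal oligopyrimidine tract), through which mTOR and LARP1 set their translation and stability. MYC, whose transcription BET proteins support in lymphoid leukaemia, raises the output of ribosome components. Human cells also carry many processed copies of these genes, most of them pseudogenes, which share long stretches of sequence with the parent.

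The start of the gene is shown for 6 members because a run of C and T bases at the start of the message marks the TOP class. Each window holds 10 bases before and 20 bases from the annotated start, read 5′ to 3′ on the coding strand, from RefSeq on GRCh38.p14. Capitals mark an unbroken run of at least 8 C or T bases that covers the start base. A run may begin before the start and need not begin with C, so its length is not that of a tract in the message. A window with no such run is in lower case throughout.
RPS14, chr5:150449720-150449749, minus strand: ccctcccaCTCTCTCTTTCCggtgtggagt
RPS6, chr9:19380217-19380246, minus strand: gaagttggCCCTCTTTTCCgtggcgcctcg
RPS24, chr10:78033853-78033882, plus strand: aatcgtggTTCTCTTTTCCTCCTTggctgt
RPL37A, chr2:216498834-216498863, plus strand: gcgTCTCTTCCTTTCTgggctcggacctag
RPL9, chr4:39458903-39458932, minus strand: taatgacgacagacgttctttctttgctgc
RPS4X, chrX:72277229-72277258, minus strand: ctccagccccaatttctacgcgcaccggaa

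Of the 25 members with an entry, 18 (72%) carried such a run at an annotated start, against 5.94% of the 27305 genes with an entry. The longest run, of 16 bases, was that of RPS24. RPL39L, RPL3L, RPS15A and RPL8 were not examined. The MYC and MAX motif CACGTG, which reads the same on both strands, occurred in the 300 bases around the start of 1 member, RPS19 (4%), against 8.78% of genes. The run was present in 4 of the 6 members with an entry that were lower with JQ1 in the core values, and in 14 of the other 19. For the extended values the counts were 9 of 12 and 9 of 13. No test was made of these shares, and a match describes letters near an annotated start, not the start used in these cells.

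The rows differ in what they measure, and this bears on every result below. Row identifiers run in chromosome order: 99.5% of the 14405 single-symbol core rows with a known chromosome lie among genes of their own chromosome. The rows used for 6 members do not. The row named RPL14, a gene of chromosome 3, lies among genes of chromosome 12, and that of RPL27A (chromosome 11) among genes of chromosome 6. The row of RPL4 (chromosome 15) lies among genes of chromosome 3, that of RPL41 (chromosome 12) among genes of chromosome 17, and those of RPS13 (chromosome 11) and RPS29 (chromosome 14) among genes of chromosome 1. These same 6 rows had identical core and extended values, which was so for 11.2% of all genes. RefSeq lists between 6 and 33 pseudogenes named after each of these 6 genes. For the members whose rows lie among genes of their own chromosome it lists between 0 and 40, so such counts do not set the 6 apart. Whether the 6 rows read such a copy was not tested, and their values are given as those of the row so named. RPL14, RPL27A and RPL41 each have a second core row among genes of their own chromosome, and with those rows 26 members can be followed at their own position.

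The core values of the members were high on the array's scale. Their median over the 12 arrays was 10.08, against 8.52 for all genes, and 9 of the 29 lay in the highest 10% of genes, which starts at 10.98. A level depends on a row's probes as well as on its message, so the positions of 2 rows do not rank their messages. The highest rows were RPL8 and RPL18, both at 14.32, followed by RPS25 at 13.41, RPS6 at 12.37 and RPL11, a large-subunit protein that also binds MDM2, at 12.34. The highest value of any gene on any core array was 14.61, so RPL8 and RPL18 sat close to the top of the scale. The lowest rows were RPL10L at 5.34, RPS29 at 6.48, RPS19 at 7.22, RPL39L at 7.32 and RPL35 at 7.77.

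The extended form summarises the core probe sets together with probe sets of weaker annotation. In the 23 members whose forms differ, 16 had a lower extended than core value, and the median gap was 1.48 against 0.31 over the 12641 such genes. The gap exceeded 2 log2 units in 9 of the 23 and in 3.03% of all these genes. It was largest for RPL18 (5.47) and RPL8 (5.30), then RPL11 (3.86), RPS25 (3.73) and RPS6 (3.02). RPS19 went the other way, with an extended value 1.53 above its core value (core minus extended -1.53).

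**Figure D1:**
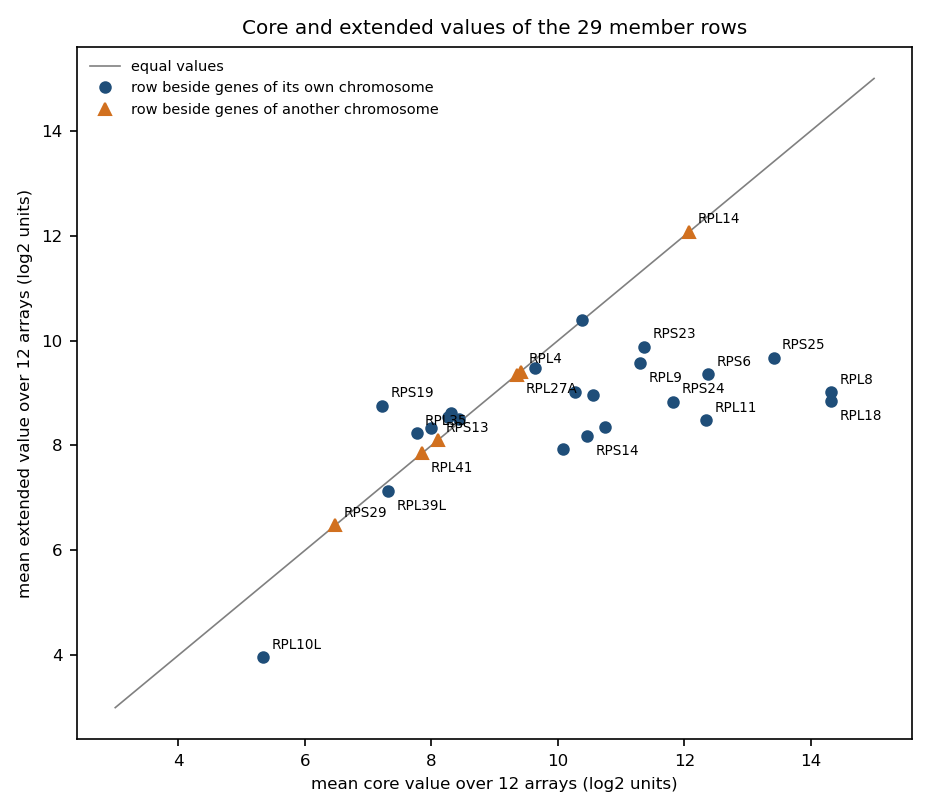
Mean core value (horizontal axis) against mean extended value (vertical axis) over the 12 arrays, in log2 units, for the 29 member rows. Circles are rows among genes of their own chromosome and triangles are the 6 rows among genes of another chromosome, which lie on the line of equal values. The rows with a core value above 10.98, other than that of RPL14, fall below that line, RPL18 and RPL8 by more than 5 units.

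With JQ1 in MHH-CALL4, 6 members were lower and 3 higher in the core values (limma, with p-values adjusted by Benjamini-Hochberg over the 14232 genes and called under 0.05). That is 20.7% and 10.3% of the members, beside 17.5% of all genes lower and 11.0% higher. In MUTZ-5, 4 members were lower (13.8%, beside 13.0% of all genes) and 0 were higher (beside 9.06%). At an unadjusted p under 0.05 there were 2 higher members in MUTZ-5, beside 1938 of the 14232 genes. The shares of members called lay close to those of all genes. Their median change was -0.05 in each line, against 0.01 for all genes in each line. Centring each array on its own median gave 5 lower and 3 higher members in MHH-CALL4. In MUTZ-5 it gave 4 lower and 2 higher, the higher ones being the row named RPL41 (0.56, adjusted p 0.045) and RPS15A (0.25, adjusted p 0.031), and cyclic loess gave 5 lower and 1 higher, so the count of 0 higher depends on the scaling. Centring changed the split over all genes there from 2494 lower and 1563 higher to 2293 and 2162, and in MUTZ-5 from 1848 and 1290 to 1656 and 1761. Array values are relative to the other RNA of a sample, so less RNA per cell and fewer cells of a type cannot be told apart here, nor can a fall common to all RNA be seen. The 4 members lower in MUTZ-5, RPS14, RPL9, RPL37A and RPL6, were also lower in MHH-CALL4. How many of all genes were lower in both lines was not counted, here or below, so such overlaps have no share to stand beside.

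RPS14, a small-subunit protein whose gene on chromosome 5 is lost in a form of myelodysplastic syndrome, fell most. In MHH-CALL4 its core values were 10.56, 10.49 and 10.69 under DMSO and 9.77, 9.50 and 9.53 with JQ1. In MUTZ-5 they were 11.23, 10.99 and 11.31 under DMSO and 10.36, 10.63 and 10.42 with JQ1. All 3 JQ1 arrays lay below all 3 DMSO arrays in each line. The change was -0.98 (SE 0.107, adjusted p 1.6e-05), a 1.97-fold fall, in MHH-CALL4 and -0.71 (SE 0.107, adjusted p 3.1e-04), a 1.63-fold fall, in MUTZ-5. Leaving out any 1 of the 12 arrays did not end either call, with adjusted p up to 0.00222.

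RPL9, a protein of the large subunit, was the other member called lower in both lines with any array left out. Its core values in MHH-CALL4 were 11.52, 11.54 and 11.54 under DMSO and 11.12, 11.08 and 11.04 with JQ1. In MUTZ-5 they were 11.55, 11.36 and 11.60, then 11.06, 11.04 and 11.23. The arrays of the 2 treatments did not overlap in either line. The changes were -0.45 (SE 0.0803, adjusted p 8.3e-04) and -0.40 (SE 0.0803, adjusted p 0.0027).

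RPL37A, a small zinc-binding protein of the large subunit, averaged 9.91 ± 0.18 (SD, n = 3) under DMSO and 9.47 ± 0.17 with JQ1 in MHH-CALL4. In MUTZ-5 the means were 9.87 ± 0.18 and 9.33 ± 0.23. Its changes were -0.44 (adjusted p 0.027 from limma) and -0.54 (adjusted p 0.0099), and the treatments did not overlap. RPL6, also of the large subunit, changed by -0.42 (adjusted p 0.015) and -0.40 (adjusted p 0.024). In MHH-CALL4 the call of RPL37A ended without DMSO replicate 1 or JQ1 replicate 2 or 3, with adjusted p up to 0.115. That of RPL6 ended without DMSO replicate 1 or 2 or JQ1 replicate 1 in MHH-CALL4 (adjusted p up to 0.0704). In MUTZ-5 the call of RPL6 ended without DMSO replicate 1 or JQ1 replicate 1 or 2, with adjusted p up to 0.107.

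RPL28 of the large subunit and RPS25, a small-subunit protein used in initiation at internal entry sites, were lower in MHH-CALL4. RPL28 changed by -0.34 (adjusted p 0.019) there, and by -0.26 (adjusted p 0.075) in MUTZ-5. RPS25 changed by -0.25 (adjusted p 0.047) in MHH-CALL4 and by 0.01 (adjusted p 0.96) in MUTZ-5. A second core row of RPS25 went the other way in MHH-CALL4, as given below. The RPS25 call ended in 7 of the 12 fits that leave out an array, and that of RPL28 in 4. For RPS25 these were the fits without MHH-CALL4 DMSO replicate 1 or 2, MHH-CALL4 JQ1 replicate 2 or 3, MUTZ-5 DMSO replicate 1 or 2, or MUTZ-5 JQ1 replicate 2. For RPL28 they were the fits without MHH-CALL4 DMSO replicate 1 or 3 or JQ1 replicate 2 or 3. Neither difference between the lines was called.

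The number of called members in MHH-CALL4 fell from 9 to 4 without DMSO replicate 1 and to 5 without JQ1 replicate 2. It lay between 6 and 10 without any other single array. In MUTZ-5 it lay between 3 and 5.

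RPL35, a large-subunit protein near the exit of the nascent chain, was the member with the largest rise. Its core values in MHH-CALL4 were 6.65, 7.28 and 6.22 under DMSO and 7.72, 8.01 and 7.70 with JQ1. The JQ1 arrays all lay above the DMSO arrays, and the change was 1.09 (SE 0.226, adjusted p 0.0026). The DMSO values lay low on the scale and were not shown to be above background, so the size of this difference is uncertain. In MUTZ-5 the core values were 7.96, 8.66 and 8.24, then 8.41, 8.31 and 8.04, which overlap (change -0.03, adjusted p 0.95). The extended values of the same arrays did not show the rise: they were 8.26, 8.24 and 8.35, then 8.06, 8.13 and 8.20 in MHH-CALL4. That change was -0.15 (SE 0.0876, adjusted p 0.22).

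The other rises called in MHH-CALL4 came from rows among genes of another chromosome. The row named RPL4 rose by 0.60 (SE 0.148, adjusted p 0.0080), and in MUTZ-5 it changed by -0.01 (adjusted p 0.99). The row named RPL41, after the smallest ribosomal protein, rose by 0.52 (SE 0.184, adjusted p 0.049). In MUTZ-5 it changed by 0.52 (adjusted p 0.062), and the JQ1 arrays lay above the DMSO arrays in both lines. The RPL41 call in MHH-CALL4 ended in 8 of the 12 fits that leave out an array: any MHH-CALL4 DMSO replicate, MHH-CALL4 JQ1 replicate 1 or 2, MUTZ-5 DMSO replicate 1, or MUTZ-5 JQ1 replicate 1 or 2.

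**Figure D2:**
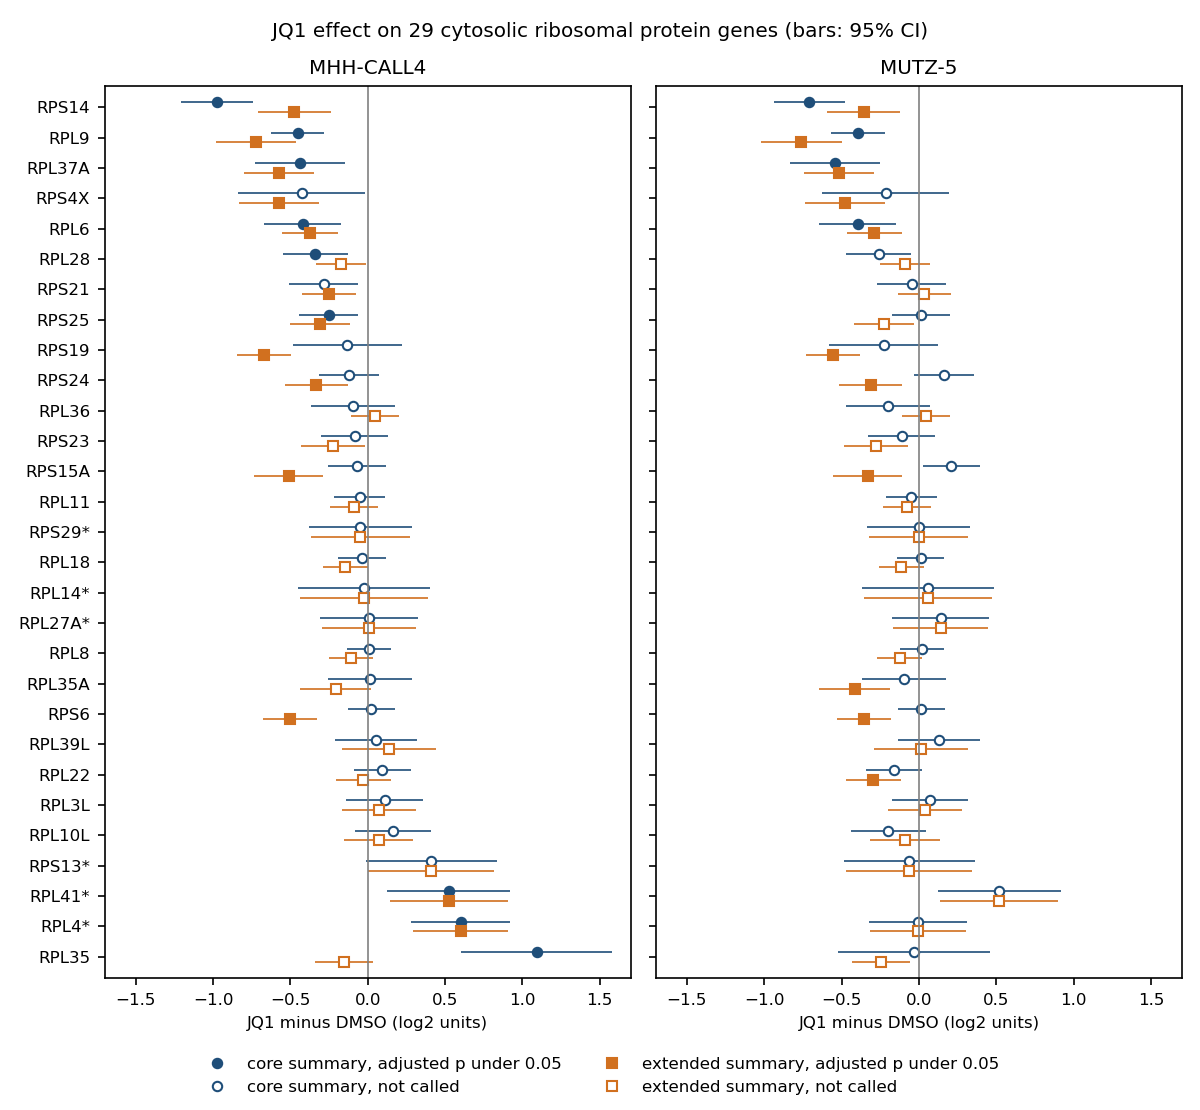
Change with JQ1 in log2 units (horizontal axis) for each of the 29 members in MHH-CALL4 (left) and MUTZ-5 (right), from core (circles) and extended (squares) summaries of the same arrays, with 95% confidence intervals from limma. Filled symbols have an adjusted p under 0.05, and an asterisk marks the 6 rows among genes of another chromosome. RPS14 lies furthest left in the core values (-0.98 and -0.71), RPL35 furthest right in MHH-CALL4 (1.09), and RPS6 and RPS19 have filled symbols in the extended values only.

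In the extended values more members were lower with JQ1. There were 11 lower members in each line, which is 37.9% of them, beside 15.9% of all genes in MHH-CALL4 and 11.6% in MUTZ-5. In MHH-CALL4 2 members were higher, the rows named RPL4 and RPL41 whose forms are identical (6.90%, beside 11.0% of all genes). In MUTZ-5 0 were higher (beside 8.53%), and 1 was at an unadjusted p under 0.05, beside 1870 of the 14232 genes. The median change was -0.15 in MHH-CALL4 and -0.12 in MUTZ-5. The 9 members lower in both lines were RPL37A, RPL6 and RPL9 of the large subunit and RPS14, RPS15A, RPS19, RPS24, RPS4X and RPS6 of the small subunit. The small subunit accounted for most of the increase: 8 of its 11 members were lower in MHH-CALL4 and 6 of 11 in MUTZ-5, against 2 and 1 in the core values. In the large subunit 3 of 18 and 5 of 18 were lower, where the core values had 4 and 3. Both forms come from the same scans, so the second count is not an independent repeat of the first.

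RPS6, the small-subunit protein that S6 kinases phosphorylate, shows the contrast. Its core values in MHH-CALL4 were 12.30, 12.41 and 12.35 under DMSO and 12.28, 12.46 and 12.39 with JQ1, which overlap. Its extended values were 9.54, 9.70 and 9.51 under DMSO and 9.13, 9.14 and 8.96 with JQ1, which do not. The extended change was -0.50 (SE 0.0813, adjusted p 3.5e-04) in MHH-CALL4 and -0.36 (SE 0.0813, adjusted p 0.0056) in MUTZ-5. The core changes were 0.02 (adjusted p 0.85) and 0.01 (adjusted p 0.94).

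RPS19, a small-subunit protein whose gene is the one most often mutated in Diamond-Blackfan anaemia, had extended values of 8.98, 9.19 and 9.13 under DMSO in MHH-CALL4. With JQ1 they were 8.38, 8.46 and 8.44. In MUTZ-5 they were 9.05, 8.90 and 9.13, then 8.56, 8.39 and 8.47. The treatments did not overlap, and the changes were -0.67 (adjusted p 3.1e-05 from limma) and -0.56 (adjusted p 2.2e-04). The core changes, -0.13 (adjusted p 0.60) and -0.23 (adjusted p 0.41), were not called, and the core values of MHH-CALL4 had an SD of 0.318 under DMSO.

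RPS4X, a small-subunit protein encoded on chromosome X, changed by -0.57 (adjusted p 0.0027) and -0.48 (adjusted p 0.011) in the extended values. RPS15A changed by -0.51 (adjusted p 0.0022) and -0.33 (adjusted p 0.036), and RPS24, another Diamond-Blackfan anaemia gene, by -0.33 (adjusted p 0.019) and -0.31 (adjusted p 0.031). The extended changes of RPL9 were -0.72 (adjusted p 4.8e-04) and -0.76 (adjusted p 3.9e-04). Those of RPS14 were -0.47 (adjusted p 0.0056) and -0.36 (adjusted p 0.033). In MUTZ-5 the extended call of RPS14 ended without DMSO replicate 1 or 3 or any JQ1 replicate (adjusted p up to 0.12), as did those of RPS15A (up to 0.129) and RPL6 (up to 0.0917). The RPS24 call ended without DMSO replicate 2 or 3 or JQ1 replicate 3 in MHH-CALL4, and without DMSO replicate 1 or 3 or JQ1 replicate 2 or 3 in MUTZ-5. That of RPS4X ended in MUTZ-5 without JQ1 replicate 2 (adjusted p 0.0638). The extended count in MUTZ-5 fell from 11 to 7 without DMSO replicate 1, DMSO replicate 3 or JQ1 replicate 3, and to 6 without JQ1 replicate 2. RPL9, RPL37A, RPS6 and RPS19 were called lower in both lines with any 1 array left out.

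The remaining extended calls were made in 1 line each. RPS25 (-0.31, adjusted p 0.021 from limma) and RPS21 (-0.25, adjusted p 0.032) were lower in MHH-CALL4, and changed by -0.23 (adjusted p 0.097) and 0.03 (adjusted p 0.86) in MUTZ-5. RPL35A, a large-subunit protein, was lower in MUTZ-5 (-0.42, adjusted p 0.012), beside -0.21 (adjusted p 0.17) in MHH-CALL4. RPL22, which binds viral and cellular RNA outside the ribosome, was lower in MUTZ-5 (-0.30, adjusted p 0.020), beside -0.03 (adjusted p 0.83) in MHH-CALL4. The RPS25 and RPS21 calls each ended without 4 arrays of MHH-CALL4, DMSO replicates 1 and 2 with JQ1 replicates 2 and 3 for RPS25 and JQ1 replicates 1 and 2 for RPS21. Those of RPL35A and RPL22 ended without JQ1 replicate 3 of MUTZ-5, and that of RPL22 also without DMSO replicate 3. The differences of effect between the lines were not called for any of these. Of the rows among genes of another chromosome, those named RPS13 (0.41, adjusted p 0.14, and -0.06, adjusted p 0.90) and RPS29 (-0.05 and 0.00) were called in neither line.

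**Figure D3:**
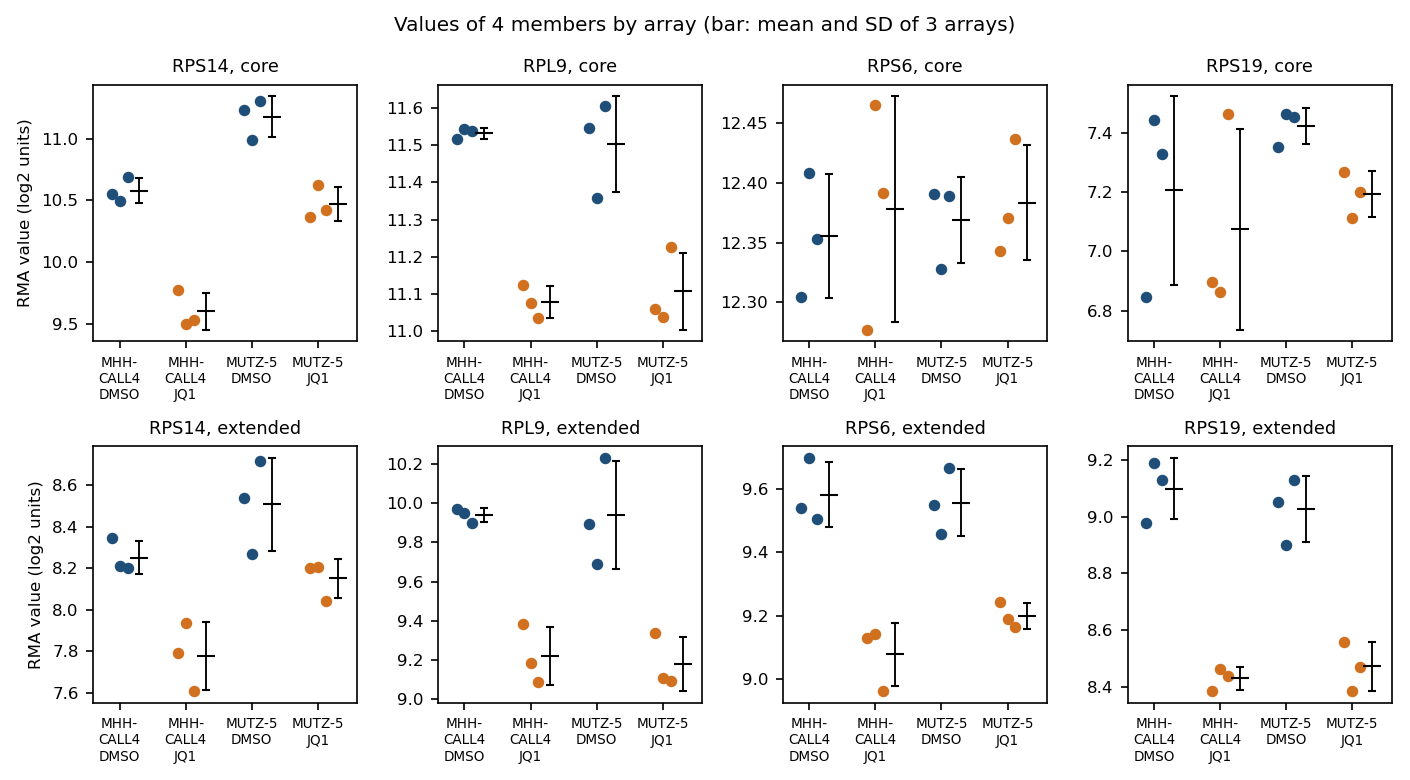
Core (upper row) and extended (lower row) values in log2 units by array for RPS14, RPL9, RPS6 and RPS19, with DMSO arrays in blue and JQ1 arrays in orange, and the mean and SD of the 3 arrays of each group beside them. The vertical axes differ between panels and do not start at 0. For RPS6 the core values all lie between 12.28 and 12.46 and those of the 2 treatments overlap, while the extended values of JQ1 arrays lie below those of DMSO arrays in each line.

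The difference between the forms was tested within each array, as extended minus core, over the 23 members and 12641 genes whose forms differ. This test was added after the 2 forms had been compared. With JQ1 in MHH-CALL4 the extended value fell relative to the core value in RPS6 (-0.53, adjusted p 0.0049) and RPS15A (-0.44, adjusted p 0.0060). It rose relative to it in RPS14 (0.50, adjusted p 0.042). The gap was -1.24 (adjusted p 0.0504) in RPL35 and -0.54 (adjusted p 0.092) in RPS19, which were not called. These are 2 lower and 1 higher of 23, beside 0.775% and 3.09% of all such genes. In MUTZ-5 it fell in RPS15A (-0.54, adjusted p 0.0035), RPS6 (-0.37, adjusted p 0.034) and RPS24 (-0.48, adjusted p 0.044), beside 0.633% of genes lower. The gaps of RPL9 (-0.36, adjusted p 0.14) and RPS14 (0.35, adjusted p 0.20) were not called in MUTZ-5. There were 0 members higher in MUTZ-5, beside 1.32%, with 2 at an unadjusted p under 0.05, beside 1114 of the 12641 genes. The called differences of RPS6 in MHH-CALL4 and of RPS15A in both lines held with any 1 array left out. Those of RPS6 and RPS24 in MUTZ-5 and of RPS14 in MHH-CALL4 were lost in 8, 9 and 10 of the 12 such fits, and in MUTZ-5 the count fell from 3 to as few as 1. The arrays whose removal left 1 were MHH-CALL4 DMSO replicate 2, MHH-CALL4 JQ1 replicate 2, MUTZ-5 DMSO replicates 2 and 3 and MUTZ-5 JQ1 replicates 2 and 3. The extended change lay below the core change in 17 of 23 members in MHH-CALL4 and 16 of 23 in MUTZ-5. Its median was -0.12 and -0.13 for the members and 0.01 and 0.00 for all such genes.

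The core row of RPS6 had a high mean and a small spread, with group SDs between 0.0357 and 0.0943. Of the 3 rows above it, those of RPL8 and RPL18 changed by -0.04 to 0.02 in the core values of both lines with no call, while that of RPS25 was called lower in MHH-CALL4, as given above. The core changes of RPL11, just below RPS6, were -0.05 in each line with no call. The extended changes of RPL8, RPL18 and RPL11, between -0.14 and -0.08, were not called either. In the extended values the JQ1 arrays lay below the DMSO arrays for RPL8 in both lines and for RPL18 in MHH-CALL4. They overlapped for RPL18 in MUTZ-5 and for RPL11 in both lines.

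The choice of row altered what several symbols showed, and 5 members had 2 core rows. The second rows of RPS25 and RPS19 lie among genes of other chromosomes. In MHH-CALL4 that of RPS25 rose from a mean of 9.36 under DMSO to 9.94 with JQ1, without overlap, while its main row fell. In MUTZ-5 its means were 9.72 and 9.84, with overlap. The second RPS19 row overlapped in both lines. Neither of these second rows was fitted on its own. RPL27A, of the large subunit, was read in its main row, among genes of chromosome 6, at 9.27, 9.15 and 9.56 under DMSO and 9.60, 9.40 and 9.02 with JQ1 in MHH-CALL4, and these overlap. The core values of its row on chromosome 11 were 9.22, 9.37 and 9.20, then 8.92, 8.68 and 8.70, which do not. The change there was -0.49 (SE 0.102, adjusted p 0.0025), and -0.51 (SE 0.102, adjusted p 0.0023) in MUTZ-5.

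RPL14, a large-subunit protein, changed in its main row by -0.02 (adjusted p 0.95) in MHH-CALL4 and 0.06 (adjusted p 0.91) in MUTZ-5. The extended values of its row on chromosome 3 fell by 0.68 (adjusted p 3.6e-04) and 0.77 (adjusted p 1.8e-04). The core values of that row changed by -0.24 (adjusted p 0.13) and -0.05 (adjusted p 0.86). RPL41 differed in sign: its main row rose as given above, while the extended values of its row on chromosome 12 fell by 0.53 (adjusted p 2.8e-04) and 0.48 (adjusted p 8.0e-04). The core changes of that row were -0.28 (adjusted p 0.21) and -0.14 (adjusted p 0.67).

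**Figure D4:**
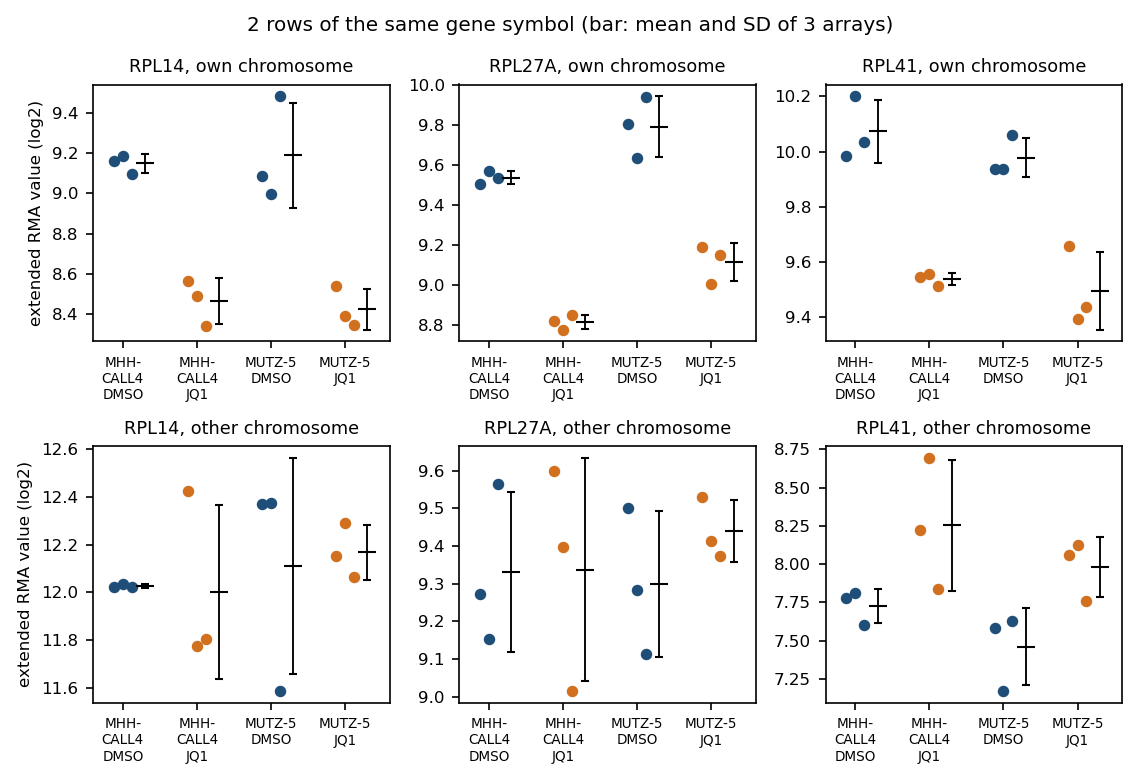
Extended values in log2 units by array for RPL14, RPL27A and RPL41, from the row among genes of the gene's own chromosome (upper panels) and the row among genes of another chromosome (lower panels). DMSO arrays are blue and JQ1 arrays orange, with the mean and SD of the 3 arrays of each group, and the vertical axes differ between panels. In the upper panels every JQ1 array lies below every DMSO array of its line, which is not so in the lower panels.

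With rows of their own chromosome and extended values, 14 of 26 members were lower in each line, 12 of them in both, and 0 were higher. The number of all genes lower in both lines was not counted. At an unadjusted p under 0.05 the count of higher members was also 0 in each line, beside 2503 and 1869 of the 14232 genes. The share of members lower, 53.8%, stood beside 15.9% of all genes in MHH-CALL4 and 11.6% in MUTZ-5, with median changes of -0.28 and -0.29. This selection of rows was made after the values had been seen and for the members only, while all other genes kept their rows. It leaves out the row named RPL4 and replaces that named RPL41. These were the 2 rows called higher with extended values in MHH-CALL4, so the count of 0 higher there reflects which rows were kept. In this selection 8 of 9 small-subunit members were lower in MHH-CALL4, all but RPS23, and 6 of 9 in MUTZ-5. RPS23, which lines the decoding centre, changed by -0.22 (adjusted p 0.10) and -0.28 (adjusted p 0.059). The copies with restricted expression, RPL3L, RPL10L and RPL39L, were called in neither line. The other members called in neither were RPL8, RPL11, RPL18, RPL28, RPL35 and RPL36, all of the large subunit.

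No member was called for a difference of the JQ1 effect between the lines (limma, 0 of 29, beside 1.53% of all genes). An unadjusted p under 0.05 was reached by 5 members, 3 below and 2 above 0, beside 609 and 881 of the 14232 genes. The largest differences were those of RPL35 (-1.12, MUTZ-5 minus MHH-CALL4, SE 0.32, adjusted p 0.13) and RPL4 (-0.61, adjusted p 0.24). RPS13 (-0.47, adjusted p 0.62), RPL10L (-0.36, adjusted p 0.45) and RPL22 (-0.26, adjusted p 0.48) followed. In the other direction RPS24 (0.29, adjusted p 0.44) and RPS15A (0.28, adjusted p 0.43) led, then RPS14 (0.27, adjusted p 0.61), RPS25 (0.26, adjusted p 0.49) and RPS21 (0.24, adjusted p 0.65). Without MHH-CALL4 DMSO replicate 2, the array with the highest RPL35 value of its group, the RPL35 difference was -1.40 with an adjusted p of 0.026. In the extended values it was -0.09 (adjusted p 0.94). The 95% interval for RPS14, from -0.06 to 0.60, includes both no difference and a smaller fall in MUTZ-5.

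Under DMSO 6 members were higher and 2 lower in MUTZ-5 than in MHH-CALL4 in the core values, which is 20.7% and 6.90% beside 11.9% and 11.5% of all genes. RPL39L, a copy of RPL39 expressed mainly in testis, differed most. The MHH-CALL4 arrays read 5.89, 5.80 and 6.16 in the core form, and those of MUTZ-5 8.62, 8.39 and 8.80. The values of the lines did not overlap, and the difference was 2.65 (SE 0.123, adjusted p 1.6e-09). The MHH-CALL4 values lay low on the scale, and since no detection calls were used this difference may be a lower bound. With JQ1 the MHH-CALL4 arrays read 6.02, 5.85 and 6.14 and the MUTZ-5 arrays 8.59, 8.82 and 8.78, which overlap the DMSO values of each line. The changes were 0.05 (adjusted p 0.80) and 0.13 (adjusted p 0.57). In the extended values the difference between lines was 1.81 (SE 0.142, adjusted p 2.1e-07), and the gap between the forms was itself called (-0.85, adjusted p 0.010). RPL10L, a testis copy of RPL10, and RPL3L, a muscle copy of RPL3, differed between lines by 0.17 (adjusted p 0.32) and 0.04 (adjusted p 0.84). RPL39, RPL10 and RPL3 were not analysed here.

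RPL35 was higher in MUTZ-5 by 1.57 (adjusted p 1.4e-04) in the core values and by 0.11 (adjusted p 0.45) in the extended ones. RPL36, of the large subunit, differed by 0.70 (adjusted p 8.9e-04) and 0.18 (adjusted p 0.11), and RPS14 by 0.60 (adjusted p 8.6e-04) and 0.26 (adjusted p 0.12). The row named RPL4 differed by 0.64 (adjusted p 0.0057), and RPL22, which is also needed in lymphocyte development, by 0.30 (adjusted p 0.019). The lower members were RPL28 (-0.31, adjusted p 0.034) and RPS15A (-0.29, adjusted p 0.024). The next by size, not called, were RPL41 (-0.27, adjusted p 0.34), RPS25 (-0.22, adjusted p 0.091), RPS24 (-0.21, adjusted p 0.11) and RPS21 (-0.05, adjusted p 0.77). The calls of RPL22, RPL28 and RPS15A ended in 3, 4 and 4 of the 12 fits that leave out an array, all of them DMSO arrays. For RPL22 these were MHH-CALL4 replicates 2 and 3 and MUTZ-5 replicate 3. For RPL28 they were MHH-CALL4 replicates 1 and 3 and MUTZ-5 replicates 1 and 2, and for RPS15A replicates 1 and 2 of each line.

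In the extended values 2 members, RPL39L and RPL4, remained higher in MUTZ-5 and 0 were lower, beside 10.8% and 10.9% of all genes. At an unadjusted p under 0.05 there were 6 and 1, beside 2397 and 2186 of the 14232 genes. Without MUTZ-5 DMSO replicate 3 the count of called members was 4. Extended minus core was called lower in MUTZ-5 for RPL35 (-1.46, adjusted p 0.019), RPL36 (-0.52, adjusted p 0.022) and RPL39L, 3 of 23 beside 2.74% of all such genes. It was called higher for 0 of 23, beside 2.6%, with 0 at an unadjusted p under 0.05, beside 1004 of the 12641 genes. Without MHH-CALL4 DMSO replicate 1 or 3 the number of members called was 1.

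**Figure D5:**
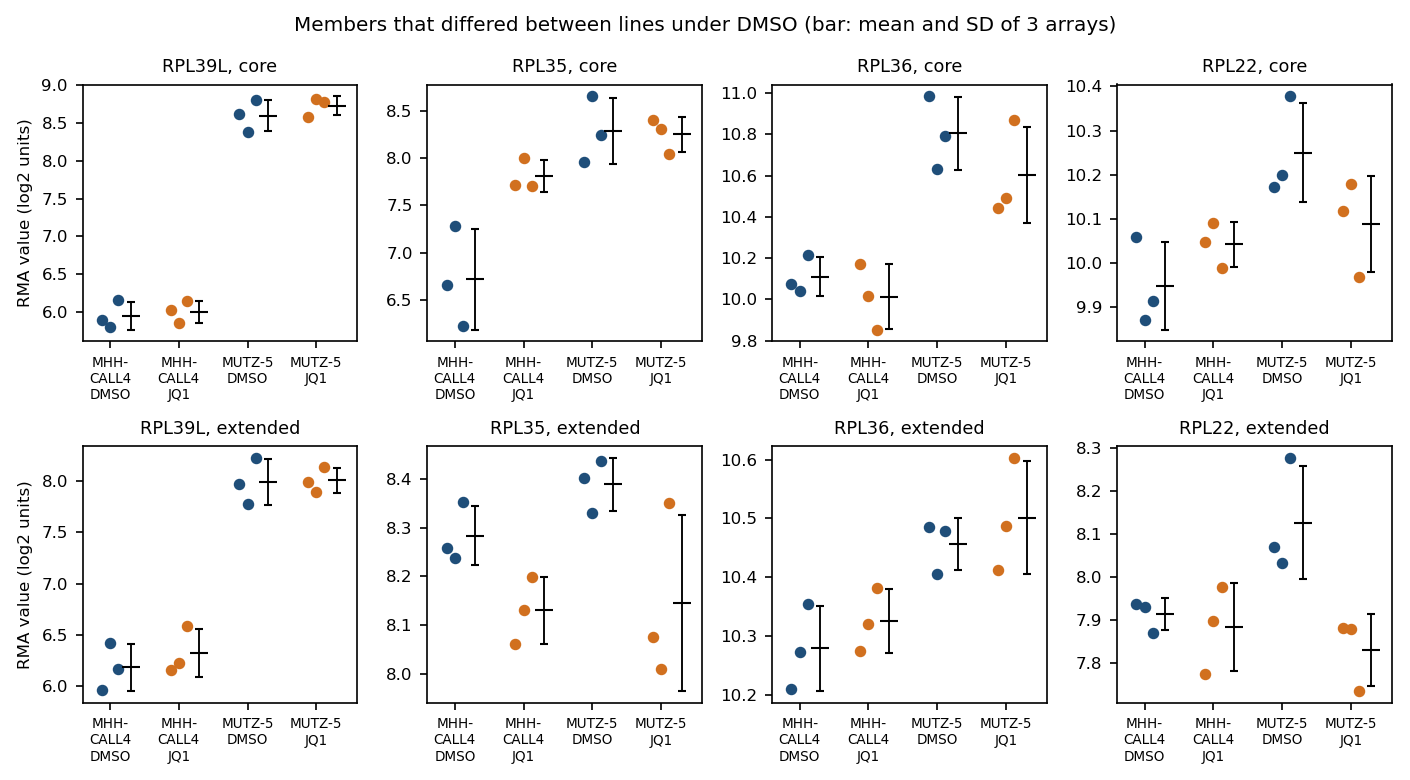
Core (upper row) and extended (lower row) values in log2 units by array for RPL39L, RPL35, RPL36 and RPL22, drawn as in the plot of RPS14 and RPL9 by array (DMSO blue, JQ1 orange, mean and SD of 3 arrays). RPL39L is higher in MUTZ-5 in both forms, by 2.65 and 1.81 under DMSO, while the core difference of RPL35 (1.57) shrinks to 0.11 in the extended values.

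Other genes of protein synthesis were measured from lists written for this purpose. The mitochondrial ribosome, which translates the messages of the mitochondrial genome with a separate set of proteins, was represented by 65 genes. With JQ1 40 of them (61.5%) were lower and 0 higher in MHH-CALL4, with 1 higher at an unadjusted p under 0.05, and 28 (43.1%) were lower and 1 higher in MUTZ-5. All genes stood at 17.5% lower and 11.0% higher in MHH-CALL4, and at 13.0% and 9.06% in MUTZ-5. At an unadjusted p under 0.05, 2444 of the 14232 genes were higher in MHH-CALL4 and 1938 in MUTZ-5. These counts stand beside the lists below as well. The median core changes of the list were -0.39 and -0.24, against -0.05 and -0.05 for the cytosolic members. The difference between the 2 lists was not tested. In the extended values the mitochondrial shares were 55.4% and 36.9%, beside 37.9% of the cytosolic members in each line. The medians there were -0.29 and -0.20 for the mitochondrial list, against -0.15 and -0.12 for the cytosolic members. With extended values and rows of their own chromosome, 53.8% of 26 cytosolic members were lower in each line, with medians of -0.28 and -0.29. The contrast between the lists thus depended on the form and rows used, and rows were selected by chromosome for the cytosolic members only. MRPL24 (-1.09, adjusted p 1.0e-05) and MRPS15 (-1.04, adjusted p 1.1e-05) fell most in MHH-CALL4, and they also fell in MUTZ-5 (-0.91, adjusted p 6.5e-05, and -0.83, adjusted p 9.6e-05).

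Among 11 chaperones and importers that carry ribosomal proteins to the nucleus and onto the pre-ribosome, 7 were lower in each line and 0 higher, also at an unadjusted p under 0.05. The lower share, 63.6%, stood beside 17.5% of all genes in MHH-CALL4 and 13.0% in MUTZ-5. Of all genes 11.0% and 9.06% were higher. LTV1, which holds the maturing small subunit, changed by -1.18 (adjusted p 2.5e-05) and -1.11 (adjusted p 5.6e-05). IPO4, an importin, changed by -0.87 (adjusted p 2.1e-06) and -0.66 (adjusted p 3.6e-05), and BCCIP by -0.79 (adjusted p 8.0e-05) and -0.69 (adjusted p 3.1e-04).

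Of 10 subunits of eIF3, the initiation factor that binds the small subunit, 6 were lower in MHH-CALL4 and 3 in MUTZ-5, and 0 were higher in either, also at an unadjusted p under 0.05. The lower shares were 60.0% and 30.0%, beside 17.5% and 13.0% of all genes, of which 11.0% and 9.06% were higher. EIF3M (-0.54, adjusted p 0.0011, and -0.43, adjusted p 0.0057) and EIF3B (-0.48, adjusted p 6.2e-04, and -0.35, adjusted p 0.0073) led in both. Among 17 other initiation and release factors 9 were lower and 1 higher in MHH-CALL4, and 7 lower and 0 higher in MUTZ-5, with 0 higher at an unadjusted p under 0.05. Their lower shares were 52.9% and 41.2%, beside the same shares of all genes. ABCE1, which splits ribosomes after termination, changed by -0.99 (adjusted p 4.6e-04) and -0.80 (adjusted p 0.0025). The cap-binding factor EIF4E changed by -0.84 (adjusted p 0.0082) and -0.65 (adjusted p 0.040). EIF2S2 rose by 0.86 (adjusted p 0.0076) in MHH-CALL4 and changed by 0.37 (adjusted p 0.27) in MUTZ-5. Its row had a mean of 4.36, low on the scale, and was not shown to be above background.

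The 8 measured elongation factors and other genes of TOP messages gave 3 lower and 0 higher in MHH-CALL4 (IPO5, -0.54, NAP1L1, -0.45, and EIF2S3, -0.19, with adjusted p of 8.5e-05, 0.0041 and 0.043). At an unadjusted p under 0.05 the higher count was again 0. The lower share there was 37.5%, beside 17.5% of all genes lower and 11.0% higher. In MUTZ-5 IPO5 was lower (-0.39, adjusted p 0.0013) and VIM higher (0.56, adjusted p 4.5e-04). Each is 12.5% of the list and so near the shares of all genes (13.0% lower and 9.06% higher). Of 17 regulators of these messages, 6 were lower and 2 higher in each line. The lower share was 35.3% in each, beside the shares of all genes just given for each line. MYC changed by -2.05 (adjusted p 8.6e-10) in MHH-CALL4 and -1.32 (adjusted p 5.3e-08) in MUTZ-5, and LARP1, the TOP-binding protein, by -0.63 (adjusted p 2.6e-05) and -0.61 (adjusted p 4.7e-05). LARP4 changed by -0.54 (adjusted p 7.4e-04) in MHH-CALL4. EIF4EBP1, an mTOR-regulated repressor of EIF4E, changed by -0.46 (adjusted p 9.3e-04) in MHH-CALL4 and -0.55 (adjusted p 3.1e-04) in MUTZ-5. The 2 regulators called higher in MHH-CALL4 were EIF4EBP2 (0.36, adjusted p 9.4e-04) and RPS6KB2 (0.25, adjusted p 0.019). Of the ribosomal protein genes outside the symbol pattern, 2 were measured: RPS27L, a copy of RPS27, changed by -0.82 (adjusted p 0.019) in MHH-CALL4 and -0.50 (adjusted p 0.17) in MUTZ-5, and RPL36AL by -0.13 (adjusted p 0.23) and -0.01 (adjusted p 0.96).

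The genes whose core values over the 12 arrays followed those of RPS14 most closely, by Pearson correlation, were ALDH18A1 and CCND3 (r = 0.98 for each) and FHIT (r = 0.98). The 12 arrays fall into 4 groups of line and treatment, so this describes a shared pattern over those groups.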

How the data were processed

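RNA of 12 samples was hybridised to Affymetrix exon arrays. The deposited values are log2 values that the authors made by RMA in Affymetrix Expression Console, per the submitters' processing notes, at a core and an extended gene level. The software version, genome build and annotation release are not given in the sources used here. No detection calls were used, and the number of arrays limits the precision. Genes were named from the platform annotation, with the same 197 genes reduced from several rows to 1 in all fits.

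A model with 1 mean for each group was fitted to all 14232 genes with limma 3.58.1 in R 4.3.3 (lmFit, contrasts.fit, eBayes). Tests were two-sided, and p-values were adjusted by Benjamini-Hochberg over the 14232 genes, with 0.05 as the threshold. The procedure was checked on simulated data. Intervals are 95%, and no filter on low values was used. The members, lists and tests were chosen with earlier results of these data known. Named with values are called members with the 8 largest non-overlapping changes each way, the 6 largest differences between lines and 5 largest differences of effect each way, the 5 highest and lowest levels, the 5 largest gaps between forms, restricted copies, members with known extra roles, and up to 3 called genes of each list. Likeness is the Pearson correlation of centred values.

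The replicate numbers of the labels were checked for pairing. Deviations of same-numbered DMSO and JQ1 arrays correlated at 0.30, 0.07 and 0.23 in MHH-CALL4 and at -0.17, -0.21 and -0.44 in MUTZ-5. Those of differently numbered arrays lay between -0.30 and 0.1 in MHH-CALL4 and between -0.32 and 0.39 in MUTZ-5. With so few arrays the check cannot exclude pairing in MHH-CALL4. The numbers were not used as pairs in the main fit. Alternatives were the extended values, median centring, cyclic loess, a level filter, a replicate block, a trended robust variance, fits within 1 line, mean rows, rows of the gene's own chromosome, and leaving out each array. The list of noncoding snoRNA host genes had 0 measured genes.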

Additional observations from a re-analysis of the deposited data

How the results depend on the processing

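RPS14 and RPL9 kept their fall and their call in both lines under each of the 21 changes of 1 setting from the core fit, as did RPL37A in MUTZ-5. With extended values and 1 array left out, the call of RPS14 in MUTZ-5 was lost in 5 of 12 fits (adjusted p up to 0.12 from limma). With extended values the count of called members was 11 in MUTZ-5 and 2 between lines under DMSO, and the median member change in MHH-CALL4 was -0.15. Changes that turned sign and were called under at least 1 of the 2 settings were, with extended values, RPL35 (-0.15) and RPS6 (-0.50) in MHH-CALL4 and RPS6 (-0.36), RPS15A (-0.33) and RPS24 (-0.31) in MUTZ-5. With rows of the gene's own chromosome, an alternative chosen after seeing the data, they were RPL27A in MHH-CALL4 (-0.49) and MUTZ-5 (-0.51) and RPL41 in MHH-CALL4 (-0.28). With the mean of a gene's rows RPS25 changed by 0.16 in MHH-CALL4. The cause was not tested.

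Leaving out 1 array gave 4 to 10 called members in MHH-CALL4 and 0 to 1 for the difference of effects. With extended values, also added after seeing the data, it gave 6 to 13 in MUTZ-5 and 2 to 4 between lines. For extended minus core it gave 1 to 3 in MUTZ-5 and 1 to 3 between lines. The replicate numbers were not used as pairs in the main fit. With a replicate block 8 members were called in MHH-CALL4, 3 in MUTZ-5 and 0 for the difference of effects, and the call of RPL6 in MUTZ-5 and of RPS25 in MHH-CALL4 ended (adjusted p 0.051 and 0.074 from limma). Extended minus core gave 1 in MUTZ-5 with the replicate block. The comparison between lines could not be fitted with the block. Centring each array on its median left 8 members called for MHH-CALL4, and in MUTZ-5 raised the count from 4 to 6 by adding 2 higher members where there had been 0. It moved the median of all genes by under 0.1. The median member change in MHH-CALL4 was 0.01 with cyclic loess, so that near 0 its sign depends on the scaling. The other settings kept the counts within 1.5 times. RPS25 in MHH-CALL4 was called under 9 of 21 settings and RPL41 under 8 of 20.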
